A study of Mus musculus with 12 samples.

Results

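The p53 genes are Trp53, which encodes the transcription factor p53, and 9 genes that p53 is known to switch on: Mdm2, Ccng1, Cdkn1a, Bax, Bbc3, Pmaip1, Trp53inp1, Sesn2 and Zmat3. They were taken by gene name from the deposited liver expression table, which made 10 of its 55487 genes. All 10 had enough counts to be tested. Liver RNA was sequenced from 12 healthy male Kunming mice, 7–8 weeks old, with 1 library per mouse and 4 mice per group. The Control group received saline, the MTP group received triptolide at 300 μg/kg (the moderate dose), and the MTP + CR group received triptolide at 300 μg/kg together with crocin at 100 mg/kg. All mice were dosed daily by oral gavage for 7 days and none carried the arthritis model. Triptolide, a diterpenoid from a medicinal vine, is an inhibitor of transcription. Crocin is a saffron pigment of the carotenoid class. The comparisons address what triptolide changes in the liver and what crocin changes on top of it. The series holds no group given crocin alone, so the effect of crocin is seen here only in the presence of triptolide.

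When DNA is damaged, or when ribosome production or transcription is disturbed, the p53 protein escapes its degradation and binds paired copies of a short motif in its target genes. The targets stop the cell cycle, start death through the mitochondria, adjust growth and RNA stability, and include Mdm2, whose product marks p53 for destruction and so closes a feedback loop. The activity of p53 is set mainly by the stability of the protein, so the mRNA of Trp53 and the mRNAs of its targets report on different steps.

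Libraries held 15509226 to 18430566 counts. Levels are given as CPM, the usual scaling of the counts of a gene to the total of its library, with that total adjusted by TMM, a factor that offsets differences in library composition. The TMM factor was 1.07 to 1.52 in MTP livers, 0.836 to 0.952 in Control livers and 0.823 to 0.989 in MTP + CR livers. The summed CPM of 6 hepatocyte markers was 68940.1 to 149445 in Control livers, against 30248 to 45918 in MTP livers and 57916 to 100714 in MTP + CR livers. None of these markers was at 0, 3 of the 6 were called lower in MTP than in Control livers, and 4 of the 6 higher in MTP + CR than in MTP livers. Of 5 monocyte markers, 4 were called higher in MTP livers, with a summed 39.2 to 398 CPM against 11.3 to 34.1 CPM in Control livers and 8.63 to 10.2 CPM in MTP + CR livers, where 4 were called lower than in MTP livers. Neutrophil markers (2 of 5 tested called higher) summed to 18.8 to 458 CPM in MTP livers, 8.90 to 115 CPM in Control livers and 8.81 to 50.5 CPM in MTP + CR livers, where 2 were called lower than in MTP livers. Of 6 endothelial markers, 4 were called lower in MTP + CR livers than in MTP livers, with a summed 119 to 158 CPM against 346 to 470 CPM. Control livers had 399 to 497 CPM, and 4 of the 6 were called lower in MTP + CR than in Control livers. None of the 6 was called in MTP against Control. The part of these shifts in the results on the p53 genes was not tested. In whole liver, fewer cells of a type and less RNA per cell cannot be told apart.

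The promoter sequences are shown first because the genes were chosen as p53 targets. RefSeq windows of 300 bases around the transcription start (GRCm38.p6) were found for 7 of the 10 genes, in 10 windows. They were searched on both strands for the p53 decamer, the 10-base motif that p53 binds in pairs. An exact match lay in 5 of the 10 windows, 1 each of Trp53, Mdm2, Ccng1, Cdkn1a and Bax, whereas 8.36% of all 32851 windows held one. An adjoining pair of decamers, 20 bases with at most 1 mismatch, lay in the windows of Ccng1 and Cdkn1a and in 0.088% of all windows. Trp53inp1, Zmat3 and Pmaip1 had no window in the table. The windows printed here are of Cdkn1a and Ccng1, which hold the pairs, of Mdm2, which holds a single decamer, and of Sesn2, where no exact match was found. Exact decamers and pairs are in capitals. In each pair 1 decamer is exact and the other carries the allowed mismatch, the second in Cdkn1a and the first in Ccng1.
Cdkn1a (chr17:29090729-29091028, plus strand): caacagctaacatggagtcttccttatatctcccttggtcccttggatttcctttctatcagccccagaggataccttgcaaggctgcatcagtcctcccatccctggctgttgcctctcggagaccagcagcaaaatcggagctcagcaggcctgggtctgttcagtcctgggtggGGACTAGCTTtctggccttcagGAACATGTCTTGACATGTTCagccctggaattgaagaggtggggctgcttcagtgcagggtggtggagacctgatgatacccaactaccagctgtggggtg
Ccng1 (chr11:40755237-40755536, minus strand): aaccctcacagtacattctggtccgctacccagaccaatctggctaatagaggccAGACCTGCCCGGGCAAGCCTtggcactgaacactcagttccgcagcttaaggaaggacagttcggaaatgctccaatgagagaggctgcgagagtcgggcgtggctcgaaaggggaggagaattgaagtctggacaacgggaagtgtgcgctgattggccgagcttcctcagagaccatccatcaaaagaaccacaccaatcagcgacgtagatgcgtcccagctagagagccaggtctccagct
Mdm2 (chr10:117710709-117711008, minus strand): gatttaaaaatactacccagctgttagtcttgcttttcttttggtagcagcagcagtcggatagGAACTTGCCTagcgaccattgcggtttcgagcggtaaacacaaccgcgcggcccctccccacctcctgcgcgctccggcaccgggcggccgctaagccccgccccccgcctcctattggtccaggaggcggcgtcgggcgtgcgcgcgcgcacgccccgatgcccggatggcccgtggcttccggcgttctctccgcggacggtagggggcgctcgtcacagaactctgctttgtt
Sesn2 (chr4:132510407-132510706, minus strand): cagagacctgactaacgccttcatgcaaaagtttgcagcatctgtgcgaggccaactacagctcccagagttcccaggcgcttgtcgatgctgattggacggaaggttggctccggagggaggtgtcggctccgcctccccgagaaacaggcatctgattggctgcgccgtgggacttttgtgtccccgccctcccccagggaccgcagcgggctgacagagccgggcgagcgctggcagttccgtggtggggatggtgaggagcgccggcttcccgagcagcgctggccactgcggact

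The Cdkn1a pair begins 51 bases before the annotated start of this window, in the sequence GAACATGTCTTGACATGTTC, and a single decamer lies 73 bases before it. The Ccng1 pair begins 195 bases before the start, as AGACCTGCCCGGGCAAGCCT. In Mdm2 the decamer GAACTTGCCT lies 186 bases before the start. A second Cdkn1a window, at the downstream start, held no exact match, nor did the 3 windows of Bbc3. These are matches of letters within a short window and say nothing of binding in these livers or of sites elsewhere in the genes.

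Compared with the Control group, 2 of the 10 p53 genes rose in the MTP group and none fell. They were Cdkn1a, 3.87-fold higher, and Sesn2, 2.48-fold higher. Calls required an adjusted p under 0.05 (edgeR's quasi-likelihood test over all tested genes, Benjamini-Hochberg adjustment) and a change of more than 1.5-fold. By this rule 2.61% of the 15197 tested genes were called higher and 2.78% lower (5.4% in either direction). These 2 were also the genes whose MTP and Control livers did not overlap, against 14.7% of all tested genes. Of the other 8 genes, 7 had a positive log2 fold change and Bbc3 a negative one. The median log2 fold change of the p53 genes was 0.73, beside 0.02 for all tested genes. At an unadjusted p under 0.05 stood 7 of the 10 p53 genes, and 22.8% of all tested genes.

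Compared with the MTP group, 4 p53 genes fell in the MTP + CR group (Mdm2, Ccng1, Trp53inp1 and Sesn2) and 1 rose (Bbc3). Among all tested genes, 6.51% were called lower and 5.94% higher (12.4% in either direction). The median log2 fold change of the p53 genes was −0.92, beside −0.03 for all tested genes. At an unadjusted p under 0.05 stood 8 of the 10, and 33.9% of all tested genes. Groups did not overlap for Cdkn1a and Bbc3, against 14.9% of all tested genes. For the 7 calls in these comparisons an exact two-sided permutation test of log2 CPM in 4 against 4 livers, not adjusted, gave p = 0.0286, the smallest it allows, for Cdkn1a and Sesn2 in MTP against Control and for Bbc3 in MTP + CR against MTP. The same exact permutation test gave p = 0.0571 for Ccng1 and for Trp53inp1, p = 0.0857 for Sesn2 and p = 0.114 for Mdm2 in MTP + CR against MTP. Both comparisons share the 4 MTP livers, so a high MTP value moves a gene up in the first and down in the second.

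**Figure D1:**
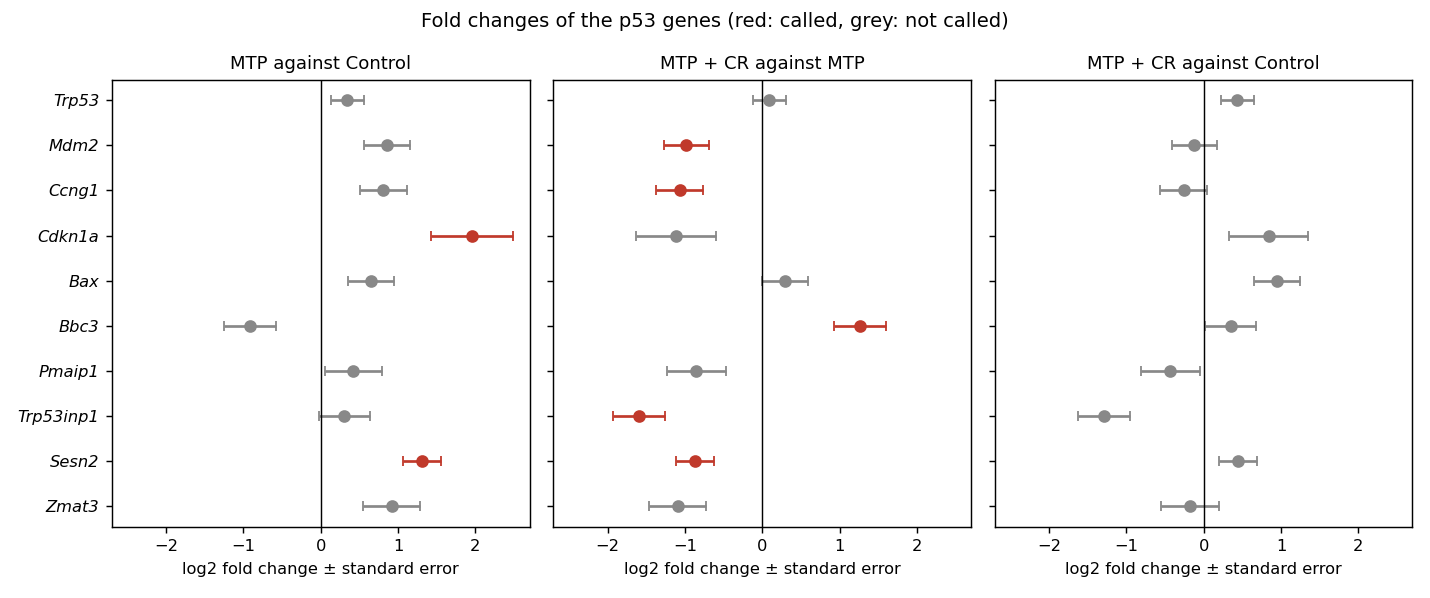
Log2 fold changes of the 10 p53 genes (points) from edgeR's quasi-likelihood fit, with standard errors (bars) derived from its F statistic. The 3 panels are for MTP against Control, MTP + CR against MTP and MTP + CR against Control. Red marks called genes. Sesn2 (1.31) and Cdkn1a (1.95) are called in the first panel, 5 genes in the second and none in the third.

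**Figure D2:**
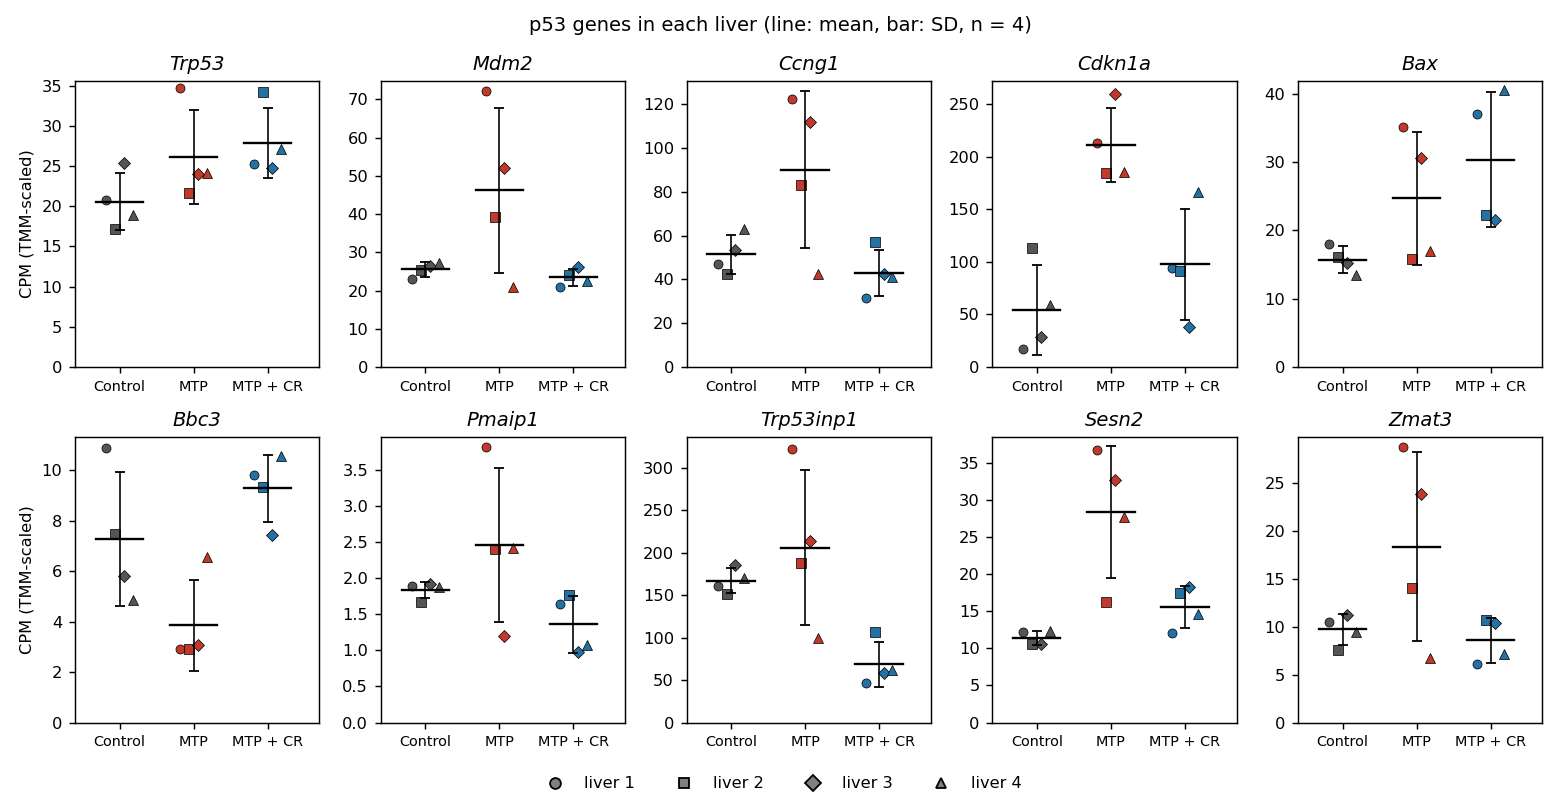
TMM-scaled CPM of each p53 gene in each liver (symbols), with the group mean (line) and SD (bar, n = 4), on axes that start at 0. MTP 4 (triangle) lies far below the other MTP livers for Ccng1 (42.5 CPM) and Mdm2 (21.0 CPM) but not for Cdkn1a (185 CPM).

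Trp53 itself (mm10, chr11:69580359-69591873, plus strand) was measured at 20.8, 17.2, 25.4 and 18.9 CPM in Control livers 1 to 4, at 34.7, 21.6, 24.0 and 24.1 CPM in MTP livers and at 25.3, 34.2, 24.8 and 27.2 CPM in MTP + CR livers. The groups overlapped, and a single liver stood highest in each treated group. Its log2 fold change was 0.34 ± 0.21 (SE) in MTP against Control (edgeR adjusted p = 0.373) and 0.09 in MTP + CR against MTP (edgeR adjusted p = 0.784). The sign of the latter depends on the scaling, since it was −0.44 with total counts in place of TMM. A processed copy, Trp53-ps, had 22 counts in all 12 libraries together.

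Mdm2, the ubiquitin ligase that marks p53 for degradation (chr10:117688875-117710758, minus strand), had 23.0, 25.3, 26.5 and 27.2 CPM in Control livers, 72.2, 39.3, 52.2 and 21.0 CPM in MTP livers, and 20.8, 24.1, 26.2 and 22.5 CPM in MTP + CR livers. MTP 1, 2 and 3 were above every Control and MTP + CR liver, and MTP 4 was below every Control liver. The log2 fold change was 0.86 ± 0.29 in MTP against Control (edgeR adjusted p = 0.0998). Mdm2 fell in MTP + CR against MTP by 0.98 on the log2 scale (1.97-fold, edgeR adjusted p = 0.0455). This call was lost in 11 of 12 fits that left out 1 liver (adjusted p = 0.0595 to 0.148) and was kept without MTP 4 (−1.20, adjusted p = 0.00350). Its range over these fits was −1.20 to −0.67.

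Ccng1 encodes cyclin G1, which brings a phosphatase to the Mdm2 protein (chr11:40748552-40755311, minus strand). It had 47.0, 42.4, 53.4 and 62.8 CPM in Control livers, 123, 83.0, 112 and 42.5 CPM in MTP livers, and 31.3, 57.0, 42.4 and 41.1 CPM in MTP + CR livers. MTP 1, 2 and 3 again lay above every liver of the other groups, and MTP 4 lay at the low end of the Control livers. The log2 fold change was 0.81 ± 0.30 in MTP against Control (edgeR adjusted p = 0.129). Ccng1 fell in MTP + CR against MTP by 1.07 on the log2 scale (2.10-fold, edgeR adjusted p = 0.0396). The call was lost in 10 of 12 fits that left out 1 liver (adjusted p = 0.0504 to 0.121, log2 −1.28 to −0.87 over the 12) and kept without MTP 4 or MTP + CR 2.

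Of 14 other regulators of p53 (ubiquitin ligases, deubiquitinases, kinases and cofactors), 10 were tested and none was called by edgeR in any comparison. Cop1, a ubiquitin ligase for p53, had 26.6 to 28.3 CPM in Control livers and 15.6 to 20.9 CPM in MTP livers, with no overlap. Its log2 fold change was −0.63 (edgeR adjusted p = 0.0540). Without MTP 4 Cop1 passed the test (−0.74, adjusted p = 0.0203). Usp7, a deubiquitinase of Mdm2 and p53, gave −0.76 in MTP + CR against MTP (edgeR adjusted p = 0.195), where MTP + CR 4 stood alone at 11.4 CPM beside 61.3 to 70.5 CPM in the other MTP + CR livers.

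Cdkn1a encodes p21, the inhibitor of cyclin-dependent kinases that holds cells before DNA replication (chr17:29090976-29100727, plus strand). It was measured at 16.8, 113, 28.8 and 58.7 CPM in Control livers, at 213, 185, 259 and 185 CPM in MTP livers, and at 94.3, 91.3, 38.1 and 166 CPM in MTP + CR livers. All 4 MTP livers lay above all 8 others, while Control and MTP + CR livers overlapped. Control 2 was well above the other Control livers, and the SD of the Control group was 79.0% of its mean against 16.7% in the MTP group. Cdkn1a rose by 1.95 ± 0.53 on the log2 scale in MTP against Control (edgeR adjusted p = 0.0479).

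The Cdkn1a call was lost without Control 1, Control 3, Control 4, MTP 1, MTP 2, MTP 3, MTP + CR 1 or MTP + CR 2 (adjusted p = 0.0578 to 0.131), and the log2 fold change ran from 1.65 to 2.59 over the 12 fits that left out 1 liver. In MTP + CR against MTP the log2 fold change was −1.11 ± 0.51 (edgeR adjusted p = 0.146), which did not pass the test although the groups were apart. The MTP + CR mean of 97.4 ± 52.4 CPM (SD, n = 4) stood between 54.4 ± 42.9 CPM in Control and 211 ± 35.1 CPM in MTP livers. The difference between MTP + CR and Control was 0.84 ± 0.51 (edgeR adjusted p = 0.346). Cdkn1a shares 273 exonic bases with an antisense transcript, which had 120 counts in all libraries against 26861 for Cdkn1a.

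With all 12 livers none of 15 cell cycle genes was called in any comparison by edgeR. Among all tested genes 5.4%, 12.4% and 1.33% were called in MTP against Control, MTP + CR against MTP and MTP + CR against Control. In these 3 comparisons 14, 6 and 12 of the 15 had a positive log2 fold change. Their medians were 0.51, −0.28 and 0.60, beside 0.02, −0.03 and −0.02 for all tested genes. The SD of the list median over the 4 Control livers was 0.59. Mcm2, part of the helicase that opens DNA for replication, had 5.08 ± 0.492 CPM in Control livers (SD, n = 4), 11.2 ± 6.77 CPM in MTP livers and 4.65 ± 2.16 CPM in MTP + CR livers, with a log2 fold change of 1.14 in MTP against Control (edgeR adjusted p = 0.111) and −1.27 in MTP + CR against MTP (adjusted p = 0.0553). Mcm2 passed the test in the latter without MTP 2, MTP 4 (−1.40, edgeR adjusted p = 0.0307) or MTP + CR 2, and its adjusted p ran from 0.0150 to 0.197 over the alternatives. Ccnb2, cyclin B2 of mitosis, had 1.60, 1.86 and 3.39 CPM in the same order of groups.

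Of the 3 genes of mitochondrial apoptosis, Bbc3 was called in 1 comparison and Bax and Pmaip1 in none. Bax, whose protein forms pores in the outer membrane of mitochondria (chr7:45461697-45466898, minus strand), had 18.1, 16.2, 15.3 and 13.5 CPM in Control livers, 35.2, 15.9, 30.6 and 17.1 CPM in MTP livers, and 37.1, 22.2, 21.6 and 40.5 CPM in MTP + CR livers. MTP 1 and MTP 3 were high and MTP 2 and MTP 4 lay among the Control livers, whereas all 4 MTP + CR livers were above every Control liver. The log2 fold change was 0.65 ± 0.30 in MTP against Control (edgeR adjusted p = 0.216) and 0.30 in MTP + CR against MTP (adjusted p = 0.501, −0.29 with total-count scaling). Bax shares 192 exonic bases with the predicted gene Gm45808, which had 32 counts in all libraries against 4904 for Bax.

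Bbc3 encodes PUMA, a BH3-only protein that blocks the survival members of the BCL2 family (chr7:16308393-16318205, plus strand). It was measured at 10.9, 7.48, 5.82 and 4.86 CPM in Control livers, at 2.91, 2.90, 3.08 and 6.57 CPM in MTP livers, and at 9.81, 9.33, 7.44 and 10.6 CPM in MTP + CR livers. MTP 1, 2 and 3 were below every other liver and MTP 4 was within the Control range, so that Bbc3 was the p53 gene with a negative log2 fold change in MTP against Control (−0.91 ± 0.33, edgeR adjusted p = 0.121). Bbc3 rose in MTP + CR against MTP by 1.27 ± 0.33 on the log2 scale (2.40-fold, edgeR adjusted p = 0.0331), with no overlap. That call was lost without MTP 1, MTP 2, MTP 3, MTP + CR 1 or MTP + CR 4 (adjusted p = 0.0712 to 0.102, log2 1.15 to 1.66 over the 12 fits).

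Pmaip1 encodes Noxa, another BH3-only protein (chromosome 18). It was the least abundant of the set, with 15 to 93 counts per library. Levels were 1.88, 1.67, 1.92 and 1.87 CPM in Control livers, 3.82, 2.40, 1.20 and 2.42 CPM in MTP livers, and 1.63, 1.76, 0.970 and 1.08 CPM in MTP + CR livers. MTP 3 was below every Control liver and the other MTP livers were above them. The log2 fold changes were 0.42 ± 0.37 in MTP against Control (edgeR adjusted p = 0.555) and −0.85 ± 0.38 in MTP + CR against MTP (adjusted p = 0.130).

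Of 12 other BCL2 family genes, 11 were tested, and 1 of them, Bmf, was called lower in MTP against Control. Among all tested genes, 2.78% were called lower there. In that comparison 5 of the 11 had a positive log2 fold change, and the median was −0.16. Bmf, a further BH3-only gene, had 5.28 to 8.66 CPM in Control livers and 2.40 to 4.25 CPM in MTP livers (log2 −1.08, edgeR adjusted p = 0.0485). It stayed low in MTP + CR livers, at 1.92 to 3.26 CPM, where it was called lower than in Control livers (−1.41, edgeR adjusted p = 0.0379). In MTP + CR against Control 1% of all tested genes were called lower. The first Bmf call was lost in 9 of 12 fits that left out 1 liver, with adjusted p = 0.0546 to 0.142 in those 9. The second was also lost in 9 of 12 (edgeR adjusted p = 0.0504 to 0.123). The survival genes Bcl2l1 (0.54, adjusted p = 0.240) and Mcl1 (−0.18, adjusted p = 0.627), named after their values were seen, did not pass the test in MTP against Control.

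Trp53inp1 encodes a stress-induced nuclear protein that works with p53 in apoptosis and in autophagy (chr4:11156431-11174379, plus strand). It was measured at 161, 152, 186 and 171 CPM in Control livers, at 323, 189, 213 and 99.9 CPM in MTP livers, and at 46.8, 107, 58.4 and 61.5 CPM in MTP + CR livers. MTP 1, 2 and 3 were above every Control liver and MTP 4 was below them, and all 4 MTP + CR livers were below every Control liver. The log2 fold change was 0.30 ± 0.33 in MTP against Control (edgeR adjusted p = 0.645), and it was −0.012 without MTP 1. Trp53inp1 fell in MTP + CR against MTP by 1.59 on the log2 scale (3.02-fold, edgeR adjusted p = 0.0187). The call was lost without MTP 1, MTP 3 or MTP + CR 1 (adjusted p = 0.0533 to 0.0562, log2 −1.88 to −1.28 over the 12 fits).

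Sesn2 encodes sestrin 2, which restrains the growth kinase complex mTORC1 and is also switched on by ATF4, a factor of the integrated stress response (chr4:132492032-132510501, minus strand). It had 12.3, 10.6, 10.6 and 12.3 CPM in Control livers, 36.8, 16.3, 32.7 and 27.7 CPM in MTP livers, and 12.01, 17.4, 18.2 and 14.7 CPM in MTP + CR livers. All 4 MTP livers were above every Control liver, MTP 4 included, and MTP 2 overlapped the MTP + CR livers. Sesn2 rose by 1.31 ± 0.25 on the log2 scale in MTP against Control (edgeR adjusted p = 0.0127). Among the p53 genes it was the call that held in all 25 alternatives, with log2 values from 1.15 to 1.82 and adjusted p from 9.39e-05 to 0.0463. Sesn2 fell in MTP + CR against MTP by 0.87 ± 0.25 (1.82-fold, edgeR adjusted p = 0.0406). That call was lost in 9 of 12 fits that left out 1 liver (adjusted p = 0.0538 to 0.126, log2 −1.04 to −0.71 over the 12).

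Zmat3 encodes a zinc finger protein that binds RNA and alters the stability and splicing of mRNAs (chr3:32334792-32366014, minus strand). It had 10.6, 7.62, 11.2 and 9.51 CPM in Control livers, 28.8, 14.0, 23.9 and 6.73 CPM in MTP livers, and 6.11, 10.8, 10.4 and 7.12 CPM in MTP + CR livers. MTP 1, 2 and 3 were above all livers of the other groups and MTP 4 was below every Control liver. The log2 fold changes were 0.92 ± 0.37 in MTP against Control (edgeR adjusted p = 0.158) and −1.09 ± 0.37 in MTP + CR against MTP (adjusted p = 0.0659). Without MTP 4 Zmat3 passed the test in both, at 1.17 (adjusted p = 0.0224) and −1.35 (adjusted p = 0.00731). Over the 25 alternatives the adjusted p ran from 0.0224 to 0.446 in the first and from 0.00731 to 0.205 in the second.

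In MTP + CR against Control none of the 10 p53 genes was called by edgeR, where 1.33% of all tested genes were called. At an unadjusted p under 0.05 stood 2 of the 10, Bax and Trp53inp1, and 22.0% of all tested genes. These were also the 2 genes whose groups did not overlap, against 15.5% of all tested genes. Bax was 0.95 ± 0.30 higher on the log2 scale (edgeR adjusted p = 0.111) and Trp53inp1 gave −1.29 ± 0.34 (adjusted p = 0.0711). DESeq2 called both, Bax higher and Trp53inp1 lower, and edgeR's likelihood ratio test and limma-voom with quality weights each called 1 gene lower. The median log2 fold change of the p53 genes was 0.11, beside −0.02 for all tested genes.

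The 4 MTP livers differed in how many p53 genes were raised. In MTP 1, 9 of the 10 lay above every Control liver, in MTP 2 and MTP 3 it was 7, and in MTP 4 it was 3. Of all tested genes, 26.9% to 33.6% lay above every Control liver in these 4 livers. The median log2 difference of the 10 genes from the Control mean was 1.21 in MTP 1, 0.44 in MTP 2, 1.00 in MTP 3 and 0.02 in MTP 4. In MTP + CR livers the number above every Control liver was 1, 3, 2 and 4, and 23.4% to 34.3% of all tested genes. Below every Control liver lay 5, 1, 3 and 5 of the 10 in MTP + CR livers 1 to 4 (24.6% to 37.4% of all tested genes) and 1, 1, 2 and 3 in MTP livers 1 to 4 (26.1% to 32.3%).

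Within MTP 4 the set was split. Cdkn1a and Sesn2 were far above every Control liver and Pmaip1 was slightly above them, Mdm2, Zmat3 and Trp53inp1 were below every Control liver, and the other 4 genes lay within the Control range. TMM factors of MTP livers 1 to 4 were 1.52, 1.15, 1.31 and 1.07, and the median log2 difference of the hepatocyte markers from the Control mean was −2.34, −0.98, −1.88 and −0.71, both in the same order as the p53 genes. Their part in the result was not tested. Neutrophil markers summed to 458 CPM in MTP 4 and 417 CPM in MTP 1, against 18.8 to 50.0 CPM in the other MTP livers.

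Without MTP 4, 5 p53 genes were called higher and 1 lower in MTP against Control by edgeR. Cdkn1a (1.98, adjusted p = 0.0390) and Sesn2 (1.29, adjusted p = 0.0110) were joined by Mdm2 (1.07, adjusted p = 0.00933), Ccng1 (1.02, adjusted p = 0.0196) and Zmat3 (1.17, adjusted p = 0.0224), and Bbc3 was called lower (−1.32, adjusted p = 0.0153). Calls among all tested genes also rose in number, from 397 higher and 423 lower to 920 higher and 1089 lower. The p53 genes called lower in MTP + CR against MTP went from 4 to 5 with the addition of Zmat3, and Bbc3 was still called higher, while the calls among all tested genes went from 903 higher and 989 lower to 2196 higher and 1813 lower. Without any other single liver the number called higher in MTP against Control was at most 2. Over the alternatives for MTP against Control the adjusted p ran from 0.00933 to 0.321 for Mdm2, from 0.0196 to 0.345 for Ccng1 and from 0.0153 to 0.326 for Bbc3.

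**Figure D3:**
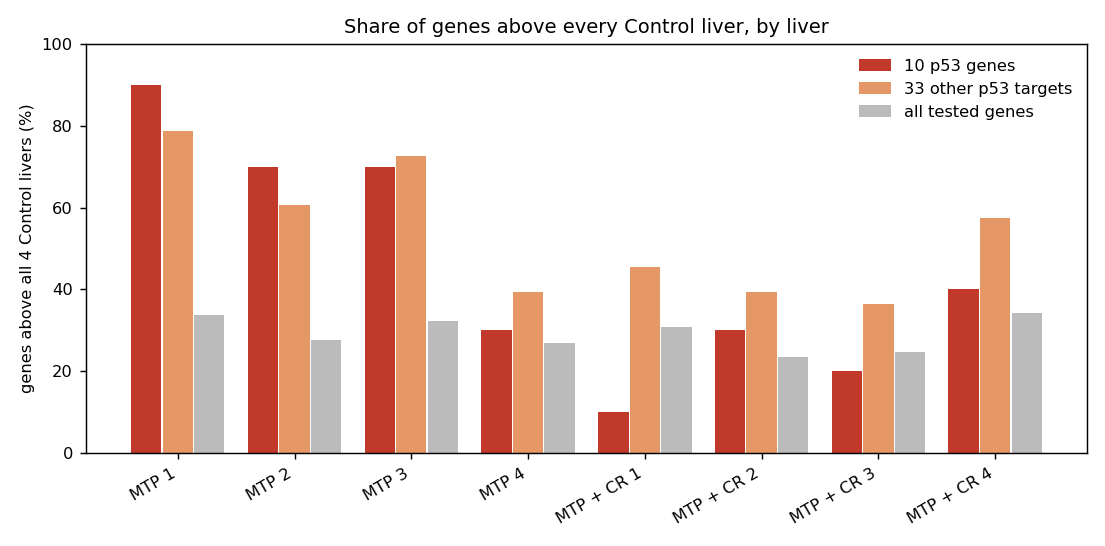
Share of genes (%) that lay above all 4 Control livers in each MTP and MTP + CR liver, for the 10 p53 genes, the 33 other p53 targets and all tested genes. The p53 genes reach 9 of 10 in MTP 1 and 3 of 10 in MTP 4, while all tested genes stay between 23.4% and 34.3%.

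With total-count scaling in place of TMM, the median log2 fold change of all tested genes was 0.50 in MTP against Control, and that of MTP + CR against MTP was −0.54. The calls among all tested genes were then 89.0% higher in the first and 9.08% higher in the second, against 48.4% and 47.7% with TMM. Under that scaling 7 p53 genes were called higher in the first comparison and 7 lower in the second. Relative to the shifted median, 9 of the 10 p53 genes were above it in MTP against Control and 3 of the 10 in MTP + CR against MTP, the same numbers as with TMM.

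A list of 34 other p53 targets was drawn up from general knowledge, with earlier results of these data known. Its counts are therefore a description and not an independent test. The list was looked at beside the set, and 33 of the targets were tested. In MTP against Control 10 were called higher and none lower, and in MTP + CR against MTP 6 were called lower and none higher. Among all tested genes, 2.61% were called higher and 2.78% lower in the first, and 6.51% lower and 5.94% higher in the second. Their median log2 fold changes were 0.71 and −0.37, beside 0.02 and −0.03 for all tested genes. In MTP + CR against Control no target was called by edgeR and DESeq2 called 4 higher and 1 lower. There 22 of the 33 had a positive log2 fold change, and the median was 0.35, beside −0.02 for all tested genes. Above every Control liver lay 15, 13, 12 and 19 of the 33 in MTP + CR livers 1 to 4 (23.4% to 34.3% of all tested genes). Below every Control liver lay 8, 6, 10 and 5 (24.6% to 37.4%). The number called higher in MTP against Control was 13 without MTP 4, 8 without MTP 2 or MTP + CR 1, 2 without Control 1, Control 3 or MTP 3, 3 without Control 4 and 4 without Control 2 or MTP 1. Calls higher among all tested genes, 397 with all livers, were 920 without MTP 4, 320 without MTP 2 and 334 without MTP + CR 1. They were 113, 112 and 110 without Control 1, Control 3 or MTP 3. Without Control 4, Control 2 or MTP 1 they were 210, 233 and 147.

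Among these targets Eda2r encodes a member of the tumour necrosis factor receptor family. It had 0.278 to 1.21 CPM in Control livers and 24.5, 4.18, 10.4 and 1.56 CPM in MTP livers. In MTP + CR livers Eda2r had 0.453 to 1.37 CPM. All 4 MTP livers were above all others. Eda2r rose by 3.72 in MTP against Control (edgeR adjusted p = 0.0156) and fell by 3.76 in MTP + CR against MTP (adjusted p = 0.0159), and both calls held with each liver left out in turn. Phlda3, a repressor of the kinase AKT, had 0.468 to 1.25 CPM in Control livers, 36.4, 4.40, 31.2 and 1.24 CPM in MTP livers and 0.259 to 3.24 CPM in MTP + CR livers. MTP 4 lay within the Control range, as it did for several of the 10 p53 genes. Phlda3 rose by 4.56 (edgeR adjusted p = 0.0185) and then fell by 3.30 (adjusted p = 0.0346).

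Gtse1, a microtubule-bound regulator that restrains p53 after DNA replication, had 0.347 to 0.710 CPM in Control livers and 14.0, 3.01, 8.78 and 1.18 CPM in MTP livers, without overlap (log2 3.67, edgeR adjusted p = 0.0137). Its level in MTP + CR livers was 0.647 to 3.20 CPM, and the log2 fold change of −1.77 against MTP did not pass the test (edgeR adjusted p = 0.0777). Polk, a DNA polymerase that copies past damaged bases, rose by 2.53 in MTP against Control (edgeR adjusted p = 0.0291) and fell by 2.76 in MTP + CR against MTP (adjusted p = 0.0201). Its MTP livers had 48.1, 10.5, 33.7 and 4.68 CPM, of which MTP 4 was within the Control range of 2.41 to 5.21 CPM. The Phlda3 call in MTP against Control was lost without Control 1, Control 3 or MTP 3, and that of Polk without any 1 Control liver, MTP 1 or MTP 3. In MTP + CR against MTP the Phlda3 call was lost in 6 of 12 fits that left out 1 liver, and the Polk call in 4.

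The other 6 targets called higher in MTP against Control, named because they were called, were Tnfrsf10b (3.22), Psrc1 (2.88), Btg2 (1.62), Gadd45a (1.41), Ddb2 (1.36) and Aen (1.29) on the log2 scale, with edgeR adjusted p from 0.0321 to 0.0487. Tnfrsf10b encodes a death receptor, Btg2 and Gadd45a restrain growth, Ddb2 finds ultraviolet damage and Aen is a nuclease of apoptosis. Each of these 6 calls was lost in 4 to 10 of the 12 fits that left out 1 liver. The other 3 targets called lower in MTP + CR against MTP were Tnfrsf10b (−3.70), Apaf1 (−1.66), the scaffold of the apoptosome, and Rrm2b (−1.61), the p53-controlled subunit of ribonucleotide reductase. These calls were lost in 3, 10 and 5 of the 12 fits that left out 1 liver. Btg2 and Gadd45a were not called in that comparison. The log2 difference of Btg2 from the Control mean was 0.54, 0.78 and 0.82 in MTP + CR 1, 2 and 3, below all 4 MTP livers at 1.43 to 1.97, and 2.73 in MTP + CR 4, above them. For Gadd45a the MTP + CR livers (0.81 to 2.02) overlapped the MTP livers (0.77 to 1.59).

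**Figure D4:**
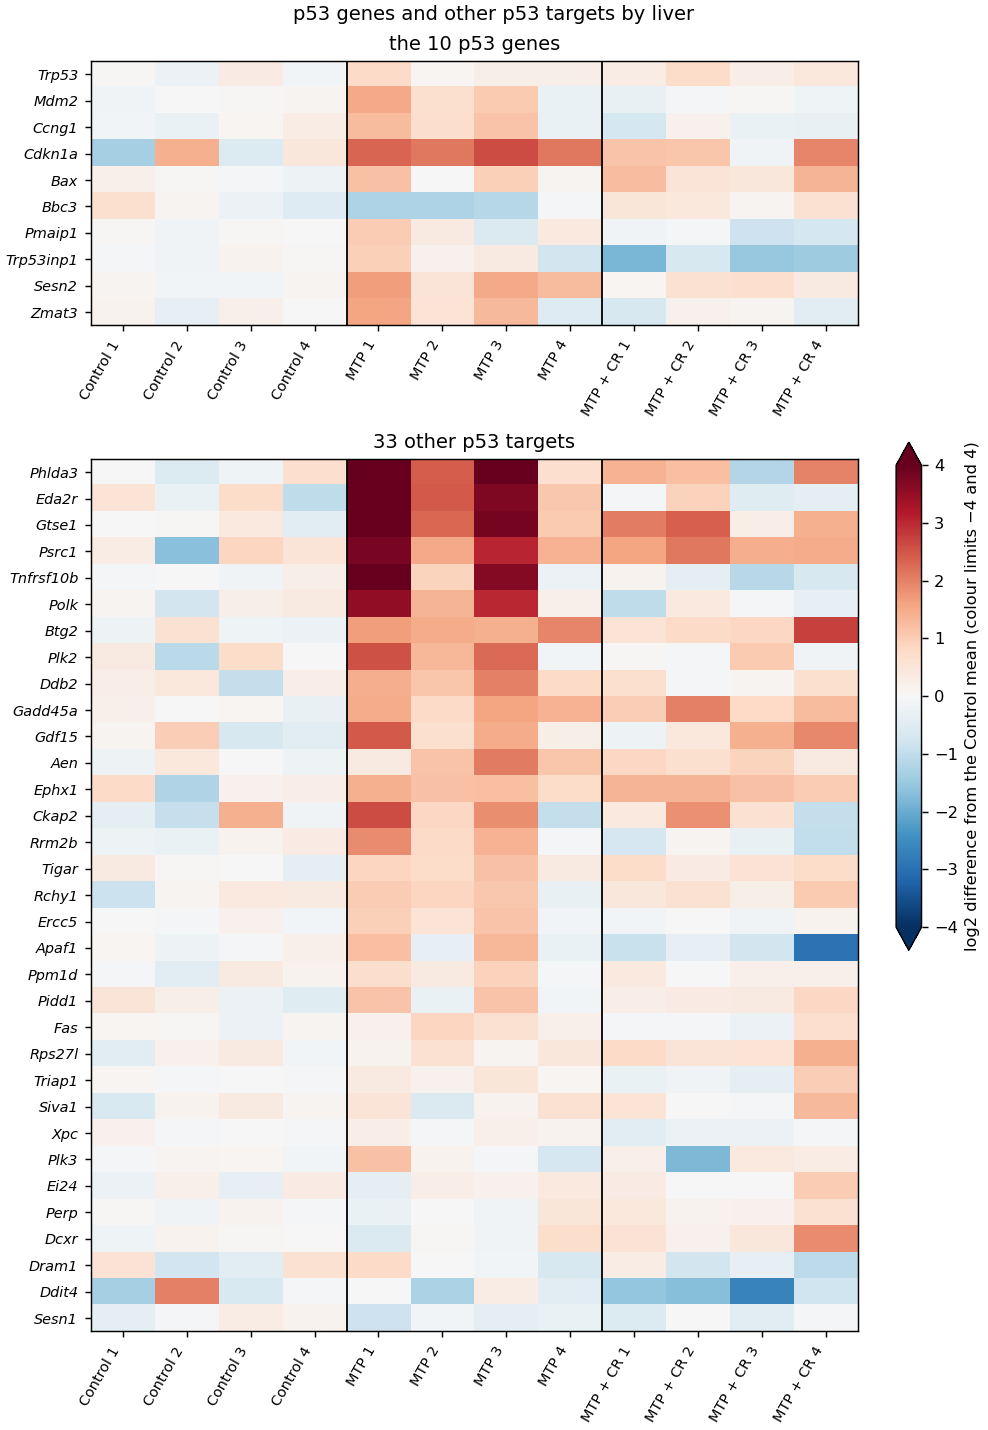
Log2 difference of each gene from its Control mean (colour, limits −4 and 4) in the 12 livers (columns), for the 10 p53 genes (upper panel) and 33 other p53 targets (lower panel, ordered by their mean in MTP livers). MTP 1 and MTP 3 carry the strongest red, with Eda2r at 24.5 and 10.4 CPM beside 1.56 CPM in MTP 4.

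Levels between genes were compared per length, as the deposited FPKM, in which fragments are divided by gene length and library total. These values carry no TMM factor. In Control livers Trp53inp1 was the most abundant of the set at 21.0 ± 1.21 FPKM (SD, n = 4), followed by Ccng1 at 10.8 ± 1.90, Cdkn1a at 7.46 ± 5.95 and Bax at 5.53 ± 0.852 FPKM, where the Cdkn1a livers overlapped both neighbours. Then came Sesn2 (2.99), Trp53 (2.60), Mdm2 (2.35) and Bbc3 (2.20), whose neighbours in the order did not differ beyond their spread, and Zmat3 (0.462) and Pmaip1 (0.271) were lowest. In MTP livers Cdkn1a stood first at 40.6 ± 11.1 FPKM, beside Trp53inp1 at 37.9 ± 22.3 and Ccng1 at 27.4 ± 14.1 FPKM, an order within the spread. In MTP + CR livers Cdkn1a was again first at 12.9 ± 6.42 FPKM, and Trp53inp1 came at 8.59 ± 4.11 FPKM, after Bax (10.3) and Ccng1 (8.91). The gene length that the FPKM values imply was longer than the summed exons of the annotation used here for every p53 gene except Sesn2, 19004 against 11435 bases for Zmat3, which lowers their FPKM relative to that annotation.

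**Figure D5:**
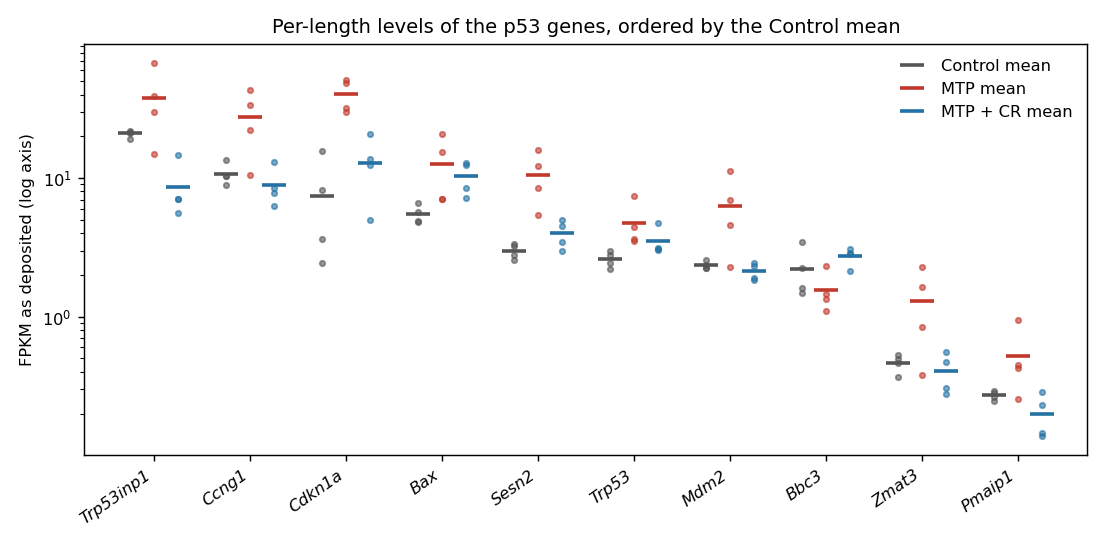
Deposited FPKM of the 10 p53 genes on a log axis, ordered by the Control mean, with each liver as a point and each group mean as a line (n = 4). Trp53inp1 leads in Control livers (mean 21.0 FPKM) and Cdkn1a in MTP (40.6 FPKM) and MTP + CR livers (12.9 FPKM).

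The profiles over the 12 livers were compared by the root mean square difference of log2 CPM after centring each gene, where a smaller value means more alike. Within the set, Mdm2 and Ccng1 were the closest pair (0.20), and Zmat3 was nearest to Ccng1 (0.21), as was Trp53inp1 (0.47). Among all tested genes, however, the nearest gene to each p53 gene lay outside the set. It stood at 0.13 for Mdm2, 0.14 for Ccng1, 0.206 for Zmat3 and 0.25 for Trp53inp1, so the likeness is not particular to p53 genes. The neighbours that follow are again those within the set. Sesn2 was nearest to Mdm2 (0.46), and Bax, Pmaip1 and Bbc3 were nearest to Trp53 (0.43, 0.51 and 0.74). The nearest gene need not move in the same direction. In MTP 1, 2 and 3 the log2 difference from the Control mean was −1.22, −1.23 and −1.14 for Bbc3. For Trp53 it was 0.77, 0.09 and 0.24 in the same livers. Cdkn1a stood apart, with Sesn2 as its nearest p53 gene at 0.94. The 5 tested genes most like Cdkn1a were BC049762 (0.52), Il20rb (0.52), Tmem100 (0.55), Hdc (0.57) and Npnt (0.58). Of these, Hdc, the enzyme that makes histamine, had 4.42 ± 1.85 CPM in Control, 21.2 ± 4.03 CPM in MTP and 10.2 ± 3.29 CPM in MTP + CR livers (SD, n = 4). The livers, their depth and their cell makeup are shared by all of these profiles, so the values describe likeness and carry no test.

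Because Sesn2 is a known target of ATF4 as well as of p53, 8 genes of the integrated stress response were set beside it. Of these 8, 1 was called higher in MTP against Control, and 2 were called higher and 1 lower in MTP + CR against MTP. Among all tested genes, 2.61% were called higher in the first comparison, and 5.94% higher and 6.51% lower in the second. In MTP against Control 3 of the 8 had a positive log2 fold change, and the median was −0.29. In MTP + CR against MTP 4 of the 8 did, and the median was 0.35. Atf3, a stress-induced repressor that both pathways can raise, had 1.00 to 4.85 CPM in Control livers, 38.3, 4.79, 21.5 and 4.25 CPM in MTP livers and 2.02 to 3.55 CPM in MTP + CR livers. It rose by 2.84 in MTP against Control (edgeR adjusted p = 0.0314) and fell by 2.65 in MTP + CR against MTP (adjusted p = 0.0302), calls that were each lost in 5 of 12 fits that left out 1 liver. Atf4 gave −0.58 in MTP against Control (edgeR adjusted p = 0.321) and rose by 1.09 in MTP + CR against MTP (adjusted p = 0.0483). Atf5 rose by 2.90 in the latter (edgeR adjusted p = 0.0451), from 26.6, 20.6, 9.73 and 301 CPM in MTP livers to 423 to 840 CPM in MTP + CR livers. MTP 4 stood apart from the other MTP livers for Atf5, whose log2 fold change was 5.15 without it. The Atf4 and Atf5 calls were each lost in 10 of 12 fits that left out 1 liver. Ddit3 (1.24, edgeR adjusted p = 0.0735) and Ppp1r15a (0.85, adjusted p = 0.170), named after their values were seen, had positive log2 fold changes in MTP against Control that did not pass the test, and gave −0.049 (adjusted p = 0.938) and −0.46 (adjusted p = 0.367) in MTP + CR against MTP. Besides Atf4, the log2 fold change in MTP against Control was negative for Atf5 (−1.61, edgeR adjusted p = 0.266) and Trib3 (−0.60, adjusted p = 0.605). It was also negative for Chac1 (−0.46, edgeR adjusted p = 0.818) and Asns (−0.12, adjusted p = 0.937). Trib3, Chac1 and Asns, too, are named after their values were seen. The part of this pathway in the Sesn2 result was not tested.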

How the data were processed

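Liver mRNA of 12 mice was sequenced. Per the methods, trimmed reads were mapped with Hisat2 2.0.5 and fragments were assigned to genes with Stringtie. The authors deposited whole-number counts and FPKM per gene. The submitters' processing notes name Bowtie 0.12.2 and mm10, and the annotation release and the strand of counting are not given in the sources used here. All 12 count and 12 FPKM columns were used. The counts were taken to edgeR 4.0.16 (R 4.3.3). Its filterByExpr (count minimum 10, total 15) kept 15197 genes. The 3 comparisons came from 1 quasi-likelihood model with TMM factors, with p-values adjusted over all tested genes after Benjamini and Hochberg. A call needed an adjusted p under 0.05 and a fold above 1.5. Standard errors were derived as the absolute log2 fold change divided by the square root of the F statistic of the test. The edgeR p-values rest on the spread between livers of the same group, 4 per group. That spread is estimated over all 12 livers and shared by the 3 groups, so each comparison also depends on the livers of the third group. The procedure was tested on simulated data. Single genes were also compared by exact permutation of 4 against 4 livers.

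The members, the gene lists and the tests were chosen with earlier results of these data known. The text names the 10 p53 genes, up to 4 called genes of each other list by adjusted p in the first 2 comparisons (up to 2 where none was called), and the 5 genes most like Cdkn1a. Others are marked. Coordinates are of mm10 from GENCODE vM21. Alternatives were DESeq2 1.42.0, RLE factors, total counts, every gene kept or a minimum of 1 CPM in 4 libraries, the likelihood ratio test, the 2 groups alone, a fold above 2 or none, the replicate number as a block, limma 3.58.1 (voom with weights, and log2(FPKM + 1) or log2(FPKM + 0.1)), and each liver left out in turn.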

Additional observations from a re-analysis of the deposited data

Results flagged for a closer look

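Of the 30 groups of 4 values formed by the 10 p53 genes in the 3 groups, 1 held a liver far from the others. Bbc3 in MTP 4 was at 6.57 CPM while MTP 1, MTP 2 and MTP 3 had 2.91, 2.90 and 3.08 CPM, and the gap to the nearest of them was 0.949 of the range of the group, above Dixon's critical value for 4 values. Chance alone marks about 1 in 20 such groups.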

How the results depend on the processing

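The calls rest on few livers. With each liver left out in turn, the p53 genes called by edgeR in MTP against Control numbered 1 to 5 higher and 0 to 1 lower, in MTP + CR against MTP 0 to 1 higher and 0 to 5 lower, and in MTP + CR against Control 0 higher and 0 to 1 lower. In MTP against Control, 7 were called higher with total-count scaling, 4 with log2(FPKM + 1), 4 with log2(FPKM + 0.1) and 4 with limma-voom weights (which also called 1 lower), and 1 with no filter or in a fit of the 2 groups alone. In MTP + CR against MTP, Bbc3 was not called higher (0 genes) with total-count scaling, either FPKM scale or the 2 groups alone, and those called lower numbered 7 with total counts or log2(FPKM + 0.1), 2 at a fold above 2, 1 with no filter and 0 with the 2 groups alone. In MTP + CR against Control, DESeq2 called 1 higher and 1 lower, and the likelihood ratio test and limma-voom called 1 lower each. The cause of these differences was not tested. The livers were not treated as pairs. Same-numbered livers deviated from their group means with correlations from −0.187 up to 0.203, and from 0.034 to 0.203 in MTP + CR against MTP. Whether same-numbered livers shared a batch was not tested. A block for the replicate number left 1 p53 gene called lower in MTP + CR against MTP. There it called 737 of all tested genes higher and 691 lower. In MTP against Control the block left 218 of all tested genes higher and 321 lower. Among all tested genes, 397 were called higher and 423 lower in MTP against Control, 903 and 989 in MTP + CR against MTP, and 50 and 152 in MTP + CR against Control. In the same order, DESeq2 called 850 and 914, 1726 and 1592, and 563 and 595. Total-count scaling gave 2610 and 321, 413 and 4133, and 38 and 108. Calls with log2(FPKM + 1) were 1804 and 299, 437 and 2939, and 20 and 59. With log2(FPKM + 0.1) they were 2083 and 334, 505 and 3986, and 37 and 103. Limma-voom with weights gave 1236 and 1426, 1732 and 1496, and 236 and 389. Without a filter the calls were 319 and 355, 556 and 587, and 24 and 92. The likelihood ratio test called 369 and 490 in MTP + CR against Control. A fold above 2 left 742 and 774 in MTP + CR against MTP. In MTP against Control the fit of the 2 groups alone called 298 and 335. The fit of the 2 groups alone called 124 and 196 in MTP + CR against MTP, where leaving out MTP 3 gave 87 and 174 and leaving out MTP 4 gave 2196 and 1813. The sign changed in MTP + CR against MTP for Trp53 (−0.44 with total counts, −0.32 with log2(FPKM + 1), −0.38 with log2(FPKM + 0.1) and −0.014 without MTP + CR 2, with 0.26 as the highest value without 1 liver), for Bax (−0.29, −0.17 and −0.17 in the first 3 settings) and for Cop1 (−0.17, −0.085 and −0.15). In MTP against Control it changed for Trp53inp1 (−0.012 without MTP 1, up to 0.51 without MTP 4) and Ccnb2 (−0.089 with limma-voom, −0.022 without Control 2 and −0.37 without MTP 1, up to 0.61 without Control 3). Counts as low as 15 for Pmaip1 limit what can be resolved for that gene.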
